A study of Mus musculus with 4 samples.

Results

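The comparison described here set T cells from mice with a conditional knockout of Cd274 in dendritic cells against T cells from control mice, without chemotherapy, and asked which gene differences appeared in both CD8 and CD4 cells and which in 1 lineage only. Mice of both groups bore tumours of MC38-OVA, colon carcinoma cells of the mouse that make ovalbumin, and received the control treatment. Live T cells were sorted from the draining lymph nodes and sequenced with a droplet 5' kit as 1 library of genotype "Control" (WT-CTRL) and 1 of the knockout (KO-CTRL). The driver of the Cre recombinase, the exons removed, the age and sex of the mice and the number of mice in a library are not given in the labels. The libraries of the doxorubicin-treated mice of the same genotypes, WT-DOX and KO-DOX, serve below as a second pair that shares no library with the first. Barcodes were kept from 300 detected genes upward and up to 10% of mitochondrial UMIs (unique molecular identifiers, each 1 counted transcript), and were taken as CD8 cells where Cd8a and Cd8b1 together had at least 2 UMIs and Cd4 had 0. They were taken as CD4 cells where Cd4 had at least 1 UMI and Cd8a and Cd8b1 had 0. Both gates required 0 UMIs of the B cell gene Cd79a. This gave 4923 CD8 and 2191 CD4 cells in WT-CTRL and 4753 CD8 and 2449 CD4 cells in KO-CTRL, together 14316 of the 25787 barcodes of these libraries and of 48597 in the series.

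PD-L1, the product of Cd274, is a ligand of the inhibitory receptor PD-1 on T cells, and dendritic cells are the main cells that present antigen to T cells in a lymph node. CD8 T cells mostly kill target cells, and CD4 T cells help or restrain other immune cells. Both lineages respond to interferons: type I interferons act through a receptor that activates transcription factors, IRF9 among them, which bind interferon-stimulated response elements in the promoters of antiviral genes, and interferon gamma acts on an overlapping set that includes the guanylate-binding proteins and the immunity-related GTPases.

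The gated cells held 20907668 UMIs in CD8 cells of WT-CTRL, 20185360 in CD8 cells of KO-CTRL, 9019193 in CD4 cells of WT-CTRL and 10313064 in CD4 cells of KO-CTRL. The median depth was 3602 and 3527 UMIs in CD8 cells and 3178 and 3185 UMIs in CD4 cells of WT-CTRL and KO-CTRL, so depth per cell differed little. CD8 cells were 38.4% (95% exact binomial interval 37.6 to 39.3) of the kept barcodes in WT-CTRL and 36.7% (35.9 to 37.5) in KO-CTRL, and CD4 cells 17.1% (16.4 to 17.8) and 18.9% (18.2 to 19.6). The libraries shared 271 barcode sequences, 80 of them gated in both. All 10 T cell markers were abundant in both lineages and none passed the fold rule given below, whereas Ms4a1 of B cells and Itgax, Xcr1, Clec9a and Siglech of dendritic cells were below 1 CPM. Other members of those marker lists were present in the gated cells, with Ighm at 135 to 206 CPM, Cd74 at 85.2 to 132, Cst3 at 62.8 to 78.7 and Ccr7, which naive T cells express, at 410 to 601 over both lineages and libraries. With 1 library in a group there is no spread between mice to compare with and no test between the groups, so every interval covers counting error only. UMIs were summed over the cells of a lineage, and in such sums more cells in a state and more RNA per cell cannot be told apart.

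Cd274 itself (ENSMUSG00000016496, chr19:29367455-29388095, GRCm38, plus strand) was not lower in the knockout libraries in either T cell lineage. In CD8 cells it was at 63.9 CPM (UMIs of the gene scaled to a common total for the lineage in that library) in WT-CTRL, 75.6 in KO-CTRL, 63.0 in WT-DOX and 73.5 in KO-DOX. In CD4 cells it was at 82.9, 93.2, 77.2 and 107 CPM in the same order. T cells are not the cells named in the genotype, and only 6 barcodes of WT-CTRL and 7 of KO-CTRL had at least 2 dendritic cell markers and no Cd3 UMI. In these, Cd274 stood at 597 CPM (95% Poisson interval 428 to 810) and 688 CPM (484 to 948), so no loss was detectable at this depth. Reads of a 5' kit need not cover the removed part, so the counts do not check the label. Within 5 Mb of Cd274, 27 genes were measured in both lineages, and 0 of them belonged to the shared differences. Over all 7372 genes measured in both, 0.638% were shared higher and 0.163% shared lower, so a count of 0 among 27 says little. Of 29 genes measured there in either lineage, 2 passed the rule given below. They were Insl6, higher in CD4 cells (log2 fold 0.43), and Rpl9-ps6, lower in CD4 cells (-0.36). Over all genes measured in CD4 cells 2.68% passed it. Ifit3 lies just outside this window, 5.22 Mb from Cd274, and Ifit1 and Ifit2 lie beside it on chromosome 19, so the count of 0 depends on the window's width.

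A gene was called where its levels in KO-CTRL and WT-CTRL were at least 0.32 apart on the log2 scale and their 95% Poisson intervals did not overlap, among genes with a mean of at least 10 CPM in the lineage. Log2 folds are of CPM plus 1, KO-CTRL over WT-CTRL, which understates the change of low genes. In CD8 cells 227 of 7532 genes were called (3.01%), 156 higher in KO-CTRL (2.07%) and 71 lower (0.943%). In CD4 cells 211 of 7877 were called (2.68%), 135 higher (1.71%) and 76 lower (0.965%). These shares over all measured genes are the background for each list count of the untreated pair below. The median log2 fold of all measured genes was -0.0080 in CD8 and 0.0042 in CD4 cells. Of 7372 genes measured in both lineages, 47 were higher in both (0.638%) and 12 lower in both (0.163%). These 59 shared genes were 28.6% of the 206 genes called in CD8 cells and 34.1% of the 173 called in CD4 cells among those measured in both. A gene was placed in 1 lineage only where, besides the missing call in the other lineage, the 95% counting interval of the difference between the log2 folds left out 0. That left 33 higher (0.448%) and 14 lower (0.19%) in CD8 cells only, and 34 higher (0.461%) and 31 lower (0.421%) in CD4 cells only. With median-of-ratios scaling the CD8-only genes split 46 higher to 7 lower. For a further 63 higher and 34 lower CD8 calls, and 26 higher and 20 lower CD4 calls, the lineages could not be separated by counting error. In the doxorubicin pair, KO-DOX over WT-DOX, 3.9% of measured genes were called higher and 1.3% lower in CD8 cells, and 3.19% and 1.4% in CD4 cells. Of the 33 CD8-only higher genes 16 were called higher there in CD8 and 9 in CD4 cells, and of the 34 CD4-only higher genes 12 in CD8 and 10 in CD4 cells. Of the 14 CD8-only lower genes 2 were called lower there in CD8 and 0 in CD4 cells, and of the 31 CD4-only lower genes 1 and 5.

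**Figure D1:**
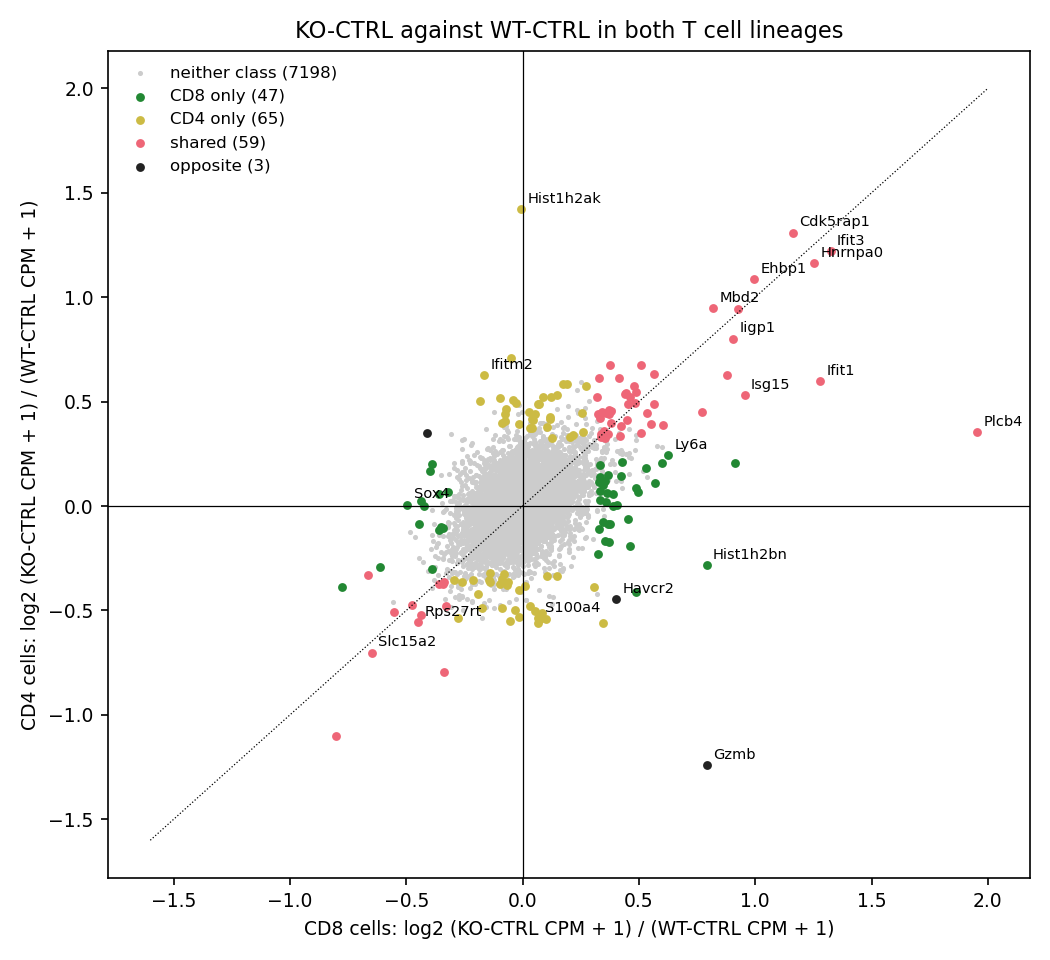
Each point is a gene measured in both lineages, placed by its log2 fold of KO-CTRL over WT-CTRL in CD8 cells (horizontal) and in CD4 cells (vertical); colours give the class, the number of genes is in the legend, and the dotted line marks equal folds. Ifit3, Hnrnpa0, Cdk5rap1 and Ehbp1 lie far out along the diagonal, Slc15a2 lies at the lower end, and Gzmb stands at 0.79 in CD8 and -1.24 in CD4 cells.

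The clearest shared group was made of interferon-induced genes. Of 45 genes on the type I interferon list, 36 were measured in CD8 cells: 19 were higher in KO-CTRL, 0 were lower, and the median log2 fold was 0.34. In CD4 cells 37 were measured, 11 were higher and 0 lower, with a median of 0.24. All 36 measured members had a positive log2 fold in CD8 cells and 34 of 37 did in CD4 cells. Higher in both lineages were 9 of them, namely Ifit1, Ifit2, Ifit3, Isg15, Usp18, Cmpk2, Rtp4, Xaf1 and Zbp1. In the doxorubicin pair 6 of 34 were higher in CD8 cells and 7 of 35 in CD4 cells, with medians of 0.16 and 0.19.

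Ifit3 (chr19:34583531-34588731, GRCm38, plus strand) encodes a protein that takes part in the block of viral RNA translation. In CD8 cells Ifit3 was at 18.7 CPM in WT-CTRL, 48.5 in KO-CTRL, 12.2 in WT-DOX and 18.2 in KO-DOX. In CD4 cells Ifit3 was at 13.2, 32.1, 9.98 and 12 CPM in that order. KO-CTRL thus stood above each of the other 3 libraries in both lineages, and its interval did not overlap theirs. The log2 fold was 1.32 in CD8 cells (95% interval of the CPM ratio 1.20 to 1.54) and 1.22 in CD4 cells (0.98 to 1.60).

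Ifit1 (chr19:34640871-34650009, plus strand), a neighbour of the same family that binds viral RNA caps, was also highest in KO-CTRL in both lineages, with a fold that differed between them. In CD8 cells Ifit1 was at 17.4 CPM in WT-CTRL, 43.6 in KO-CTRL, 14.3 in WT-DOX and 18.7 in KO-DOX. In CD4 cells Ifit1 was at 21.2, 32.6, 15.8 and 18.6 CPM. The log2 fold of 1.28 in CD8 cells exceeded the 0.60 in CD4 cells by 0.68 (95% counting interval 0.37 to 0.99). Isg15 (chr4:156199424-156200818, minus strand), a ubiquitin-like modifier, was the most abundant of the 9 in KO-CTRL. In CD8 cells Isg15 was at 59.5 CPM in WT-CTRL, 116 in KO-CTRL, 59.0 in WT-DOX and 69.0 in KO-DOX. In CD4 cells Isg15 was at 79.6, 115, 78.6 and 97.7 CPM, so the lineages reached the same level in KO-CTRL from different levels in WT-CTRL.

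The promoters of these 3 genes are shown because each holds a match to the core of the interferon-stimulated response element within 250 bases before to 50 bases after the annotated start. The motif searched was GAAA, any 2 bases and GAAA again, or TTTC, any 2 bases and TTTC on the other strand. Matches may overlap each other, and the matched bases are in capitals in the RefSeq GRCm38.p6 sequence, printed 5' to 3' along the gene's strand. The window of Isg15 is chr4:156200845-156200926 on the minus strand, with 3 overlapping matches beginning 78 to 66 bases before the start. The windows of Ifit3, chr19:34583343-34583446, and Ifit1, chr19:34640755-34640843, both on the plus strand, hold 2 matches each, beginning 156 and 122 bases before the start of Ifit3 and 104 and 85 bases before that of Ifit1.
Isg15: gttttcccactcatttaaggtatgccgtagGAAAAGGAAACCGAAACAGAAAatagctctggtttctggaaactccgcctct
Ifit3: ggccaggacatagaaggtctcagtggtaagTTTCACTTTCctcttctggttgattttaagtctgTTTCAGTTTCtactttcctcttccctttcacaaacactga
Ifit1: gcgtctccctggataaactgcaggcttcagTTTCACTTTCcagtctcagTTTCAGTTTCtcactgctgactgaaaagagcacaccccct
Of all 27025 genes with a RefSeq promoter window of 300 bases, 3.99% held the motif. Of the 30 shared higher genes with a window, 3 did, and of 34 members of the type I interferon list with a window, 19 did (55.9%). Of the 9 shared genes of that list, 6 had a window, and 3 of these held the motif. The windows of Ifit2, Cmpk2 and Xaf1 held none. These are letter matches in fixed windows and not measured binding sites.

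The remaining shared members of the list had smaller folds. Usp18, which removes Isg15 from proteins, was at 22.3 CPM in WT-CTRL and 38.8 in KO-CTRL in CD8 cells and at 19.5 and 27.1 in CD4 cells. Cmpk2, a mitochondrial nucleotide kinase, was at 11.2 and 21.4 CPM in CD8 cells and 8.87 and 14.3 in CD4 cells. Usp18, Cmpk2, Ifit1, Ifit3, Rtp4 and Daxx were the only 6 of 7372 measured genes with KO-CTRL past the same fold above all 3 other libraries in both lineages (0.0814%). Being above WT-CTRL is part of this condition and of the shared class, so their overlap was largely set in advance. Rtp4 was also higher in KO-DOX than in WT-DOX, at 48.3 against 33.7 CPM in CD8 cells and 34.7 against 23.9 in CD4 cells. Ifit2 (log2 folds 0.53 in CD8 and 0.45 in CD4 cells), Xaf1 (0.37 and 0.34) and Zbp1 (0.35 and 0.33), the last a sensor of Z-form nucleic acids, completed the 9. Outside the list, and chosen after their values were seen, Hsh2d (0.49 and 0.55), Pml (0.61 and 0.39), Trim14 (0.35 and 0.36) and Daxx (0.34 and 0.34) were shared as well.

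**Figure D2:**
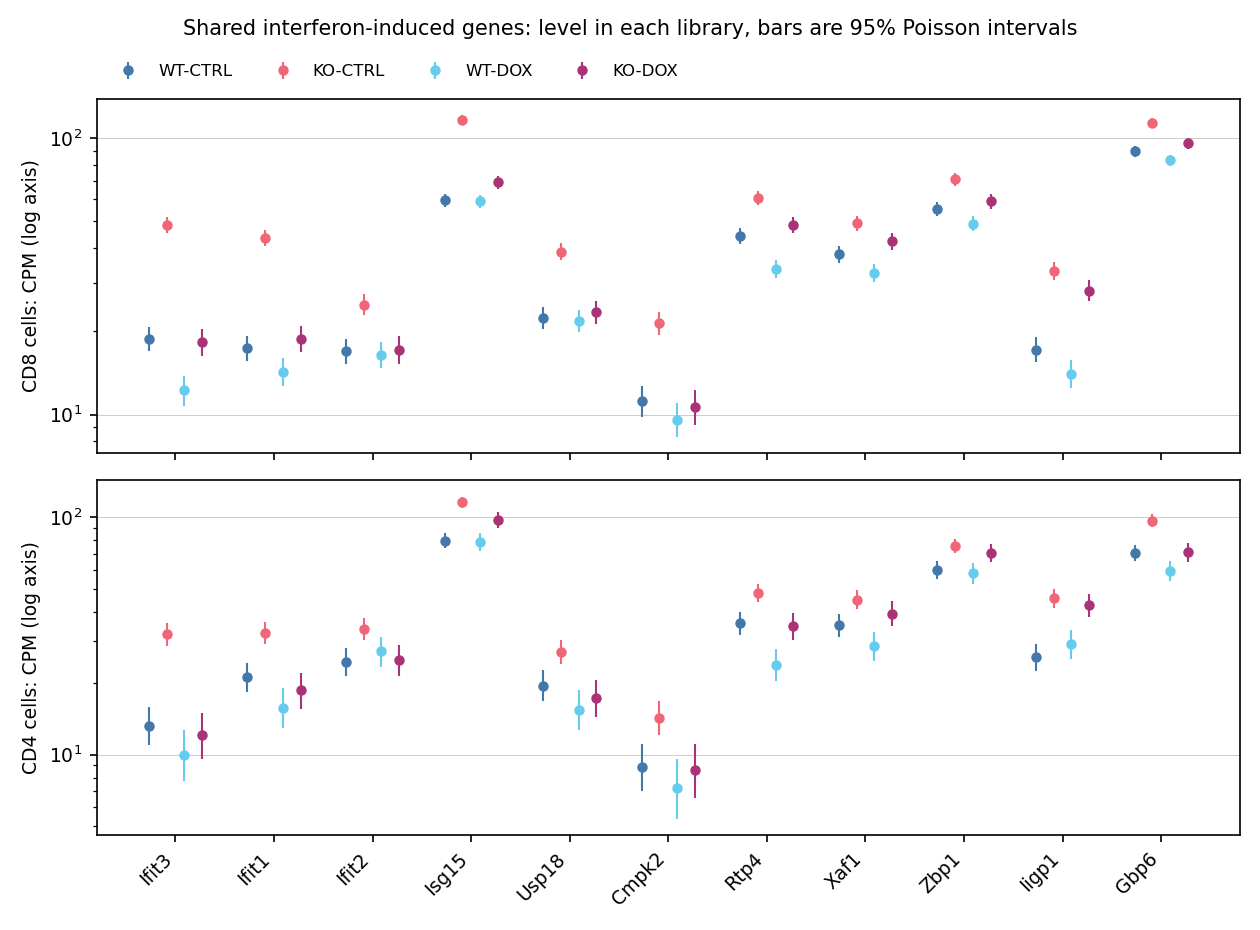
Level in CPM (log axis) of 11 shared interferon-induced genes in CD8 cells (top) and CD4 cells (bottom) of each library; bars are 95% Poisson intervals, which cover counting error only. KO-CTRL is the highest library for all 11 genes in both lineages, and for Iigp1 the KO-DOX level in CD8 cells, 28.0 CPM, lies nearer to its 33.0 CPM than to the control libraries.

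Interferon gamma and the GTPases it induces formed a second list. Of 16 measured genes on it, 5 were higher in CD8 cells (Gbp2, Gbp6, Gbp7, Iigp1 and Socs1), and 4 were higher in CD4 cells (Gbp6, Iigp1, Irgm1 and Tgtp2), where Irgm2 was lower. The medians were 0.24 and 0.15. Iigp1, an immunity-related GTPase that attacks the vacuoles of intracellular parasites, was higher with the knockout label in both treatment pairs. In CD8 cells Iigp1 was at 17.2 CPM in WT-CTRL, 33.0 in KO-CTRL, 14 in WT-DOX and 28.0 in KO-DOX. In CD4 cells Iigp1 was at 25.7, 45.6, 29.2 and 42.5 CPM. The knockout libraries lay above the control libraries in each lineage without overlap of intervals. Gbp6, a guanylate-binding protein, was at 89.5 and 114 CPM in CD8 cells and 70.5 and 96.8 in CD4 cells of WT-CTRL and KO-CTRL. Gbp10, a closely related copy that can share reads with Gbp6, was at 15.6 and 21.5 CPM and at 8.65 and 13.

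Other parts of the interferon system were not called. All 18 measured genes of class I antigen presentation stayed below the fold rule in both lineages, with medians of 0.05 in CD8 and 0.08 in CD4 cells. All 12 genes of the interferon receptors and their signalling did too, with medians of 0.0048 and -0.0072. Irf9, a subunit of the factor that binds the response element, was at 82.5 and 83.7 CPM in CD8 cells and 82.6 and 87.9 in CD4 cells. Stat2 passed in CD8 cells alone, with log2 folds of 0.36 and 0.27, and Irf7 likewise, with 0.42 and 0.26, but counting error did not separate the lineages for either.

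The difference lay in part in a small group of cells. Each cell was thinned to 1500 UMIs, and the UMIs of the 45 type I interferon genes were counted in it. In CD8 cells 0.894% (0.648 to 1.20) of cells in WT-CTRL had at least 20 such UMIs, against 3.62% (3.10 to 4.20) in KO-CTRL, 0.719% in WT-DOX and 1.31% in KO-DOX. In CD4 cells the shares were 1.91% (1.37 to 2.59), 4.10% (3.33 to 4.98), 1.66% and 2.82%. Without the 5% of cells with most such UMIs, the mean per cell was 4.75 in WT-CTRL and 5.39 in KO-CTRL in CD8 cells, and 5.39 and 6.10 in CD4 cells. Cells with at least 15 such UMIs were 2.56% and 6.74% of CD8 cells and 4.88% and 8.16% of CD4 cells in WT-CTRL and KO-CTRL. A cut of 5% thus left some of them in KO-CTRL, so these means do not show whether the remaining cells differed. The median per cell was 5 in both libraries in CD8 cells, and 5 and 6 in CD4 cells. Cells with at least 1 Ifit3 UMI were 5.71% (5.08 to 6.39) and 9.66% (8.83 to 10.5) of CD8 cells and 2.69% (2.06 to 3.46) and 5.55% (4.68 to 6.54) of CD4 cells in WT-CTRL and KO-CTRL. After thinning, the Ifit3 shares were 2.70% and 5.36% in CD8 cells and 1.63% and 3.33% in CD4 cells. A cell type that lacks Ifit3 is not among the gated cells, so the share given by free RNA was not measured.

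**Figure D3:**
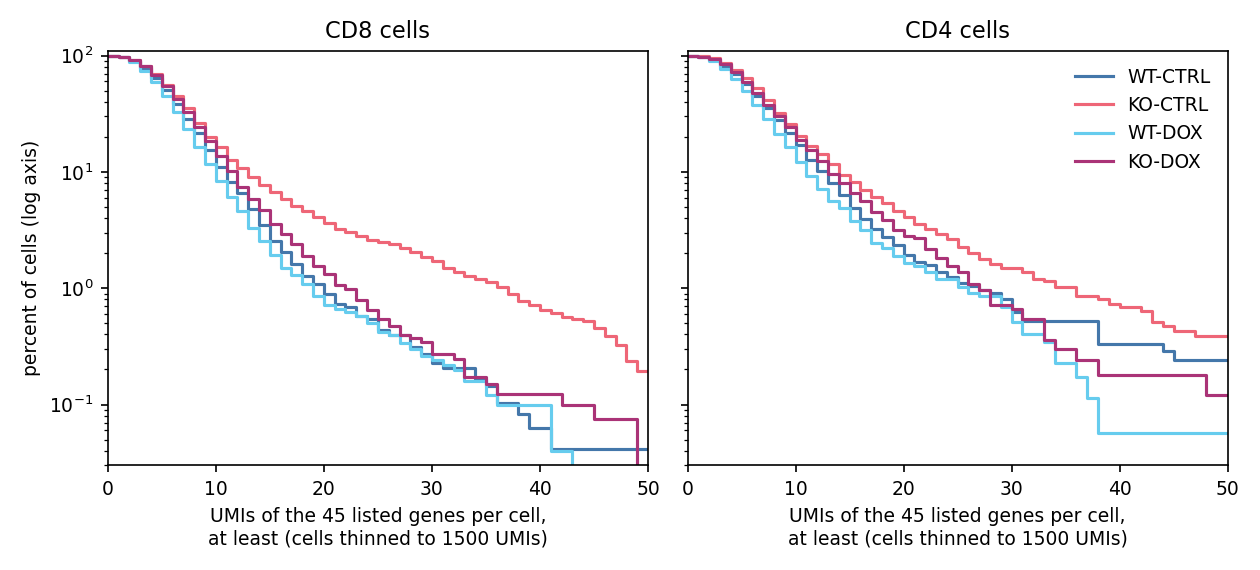
Percent of cells (log axis) with at least the number of UMIs on the horizontal axis from the 45 type I interferon genes, for cells thinned to 1500 UMIs, in each library. In CD8 cells KO-CTRL lies above the other 3 libraries, with 3.62% of cells at 20 or more; in CD4 cells KO-CTRL is also highest, at 4.10%, with KO-DOX next at 2.82%.

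A further set of shared genes had no place on the interferon lists, and for these it was WT-CTRL that stood apart. Among the 47 genes, 9 were past the same fold lower in WT-CTRL than in each of the other 3 libraries in both lineages: Hnrnpa0, Cdk5rap1, Ehbp1, Ppp2cb, Tsc22d3, Ddit4, Bbc3, Cxcr4 and Ccl5. These 9 were also all of the 7372 measured genes that met this condition (0.122%). Being below KO-CTRL is part of the condition and of the shared class, so the overlap was largely set in advance. Hnrnpa0 (chr13:58125879-58128556, minus strand), an RNA-binding protein that steadies AU-rich messages, had the largest smaller-lineage fold after Ifit3. In CD8 cells Hnrnpa0 was at 52.9 CPM in WT-CTRL, 128 in KO-CTRL, 97.9 in WT-DOX and 103 in KO-DOX. In CD4 cells Hnrnpa0 was at 58.0, 131, 99.2 and 115 CPM. The share of CD8 cells with a UMI of it was 18.8% in WT-CTRL and 38.0% in KO-CTRL, so the difference was spread over many cells.

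Cdk5rap1 (chr2:154335380-154373010, minus strand), which modifies mitochondrial transfer RNAs, was at 11.7 CPM in WT-CTRL, 27.4 in KO-CTRL, 32.9 in WT-DOX and 41.3 in KO-DOX in CD8 cells. In CD4 cells Cdk5rap1 was at 11.4, 29.8, 44.0 and 48.0 CPM. Ehbp1 (chr11:22005828-22342292, minus strand), an endocytic adaptor, was at 22.6, 46.1, 70.9 and 58.9 CPM in CD8 cells and 23.5, 51.0, 79.7 and 69.6 in CD4 cells, in the order WT-CTRL, KO-CTRL, WT-DOX, KO-DOX. For both genes WT-CTRL was the lowest library, and in CD8 and CD4 cells KO-CTRL was below WT-DOX. Ppp2cb (chr8:33599625-33619441, plus strand), a catalytic subunit of protein phosphatase 2A, was at 19.4 and 37.7 CPM in CD8 cells and 21.3 and 41.9 in CD4 cells of WT-CTRL and KO-CTRL, with 33.6 to 39.4 CPM in the doxorubicin libraries. For each of these 4 genes the order of the 4 libraries was the same in CD8 and CD4 cells. Since each library is 1 preparation, the genotype label and the making of the library cannot be told apart.

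Tsc22d3, Ddit4, Bbc3, Cxcr4 and Ccl5 had smaller folds. Tsc22d3, a target of glucocorticoids, was at 135 CPM in WT-CTRL, 176 in KO-CTRL, 208 in WT-DOX and 222 in KO-DOX in CD8 cells, and at 84.8, 117, 144 and 173 in CD4 cells. Ddit4, an inhibitor of mTOR complex signalling, was at 17.6 and 24.9 CPM in CD8 cells and 35.4 and 53.1 in CD4 cells. Bbc3, which encodes the proapoptotic PUMA, was at 23.8 and 31.2 CPM in CD8 cells and 17.9 and 29.1 in CD4 cells of WT-CTRL and KO-CTRL. In the doxorubicin pair Bbc3 stood the other way in CD4 cells, at 44.8 CPM in WT-DOX and 31.7 in KO-DOX. Over the whole p53 list, 2 of 18 measured genes were higher in CD8 and 3 of 20 in CD4 cells, 0 were lower in either, and the medians were 0.04 and -0.02. Cxcr4, the receptor of the chemokine CXCL12, was at 34.0 and 48.7 CPM in CD8 cells and 42.7 and 54.6 in CD4 cells. Ccl5, a chemokine of memory and effector cells, was at 143 and 213 CPM in CD8 cells and 12.9 and 18.4 in CD4 cells, while the share of cells with a UMI of it was 8.90% and 9.15% in CD8 cells and 2.05% and 2.12% in CD4 cells. With the wide CD4 gate the CD4 log2 fold of Ccl5 was -0.21.

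Of the 47 shared higher genes, 10 had the same call in the doxorubicin pair in both lineages, where 1.05% of measured genes were called higher in both. Mbd2, which binds methylated DNA, was one of them. In CD8 cells Mbd2 was at 64.1 CPM in WT-CTRL, 114 in KO-CTRL, 75.3 in WT-DOX and 106 in KO-DOX. In CD4 cells Mbd2 was at 63.4, 123, 86.7 and 121 CPM. Both knockout libraries were above both control libraries, and 20.9% of CD8 cells had a UMI of Mbd2 in WT-CTRL, 33.1% in KO-CTRL, 23.7% in WT-DOX and 31.3% in KO-DOX. Plcb4, a phospholipase C, chosen after its values were seen, had the largest fold of any shared gene in CD8 cells. In CD8 cells Plcb4 was at 3.73 CPM (2.95 to 4.66) in WT-CTRL, 17.3 (15.6 to 19.3) in KO-CTRL, 4.22 in WT-DOX and 14.7 in KO-DOX. In CD4 cells Plcb4 was at 31.6, 40.6, 31.7 and 51.3 CPM. Cells with a UMI of Plcb4 were 1.46% of CD8 cells in WT-CTRL, 6.50% in KO-CTRL, 1.45% in WT-DOX and 5.66% in KO-DOX, and at most 3 of the KO-CTRL UMIs came from 1 cell. The log2 fold of 1.95 in CD8 cells exceeded that in CD4 cells by 1.60 (1.19 to 2.02), and the CD4 call was lost with the strict gate, at 0.053. Lpcat4, an acyltransferase of phospholipid synthesis, was at 13.8 and 20.9 CPM in CD8 cells and 14 and 22.2 in CD4 cells of WT-CTRL and KO-CTRL.

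**Figure D4:**
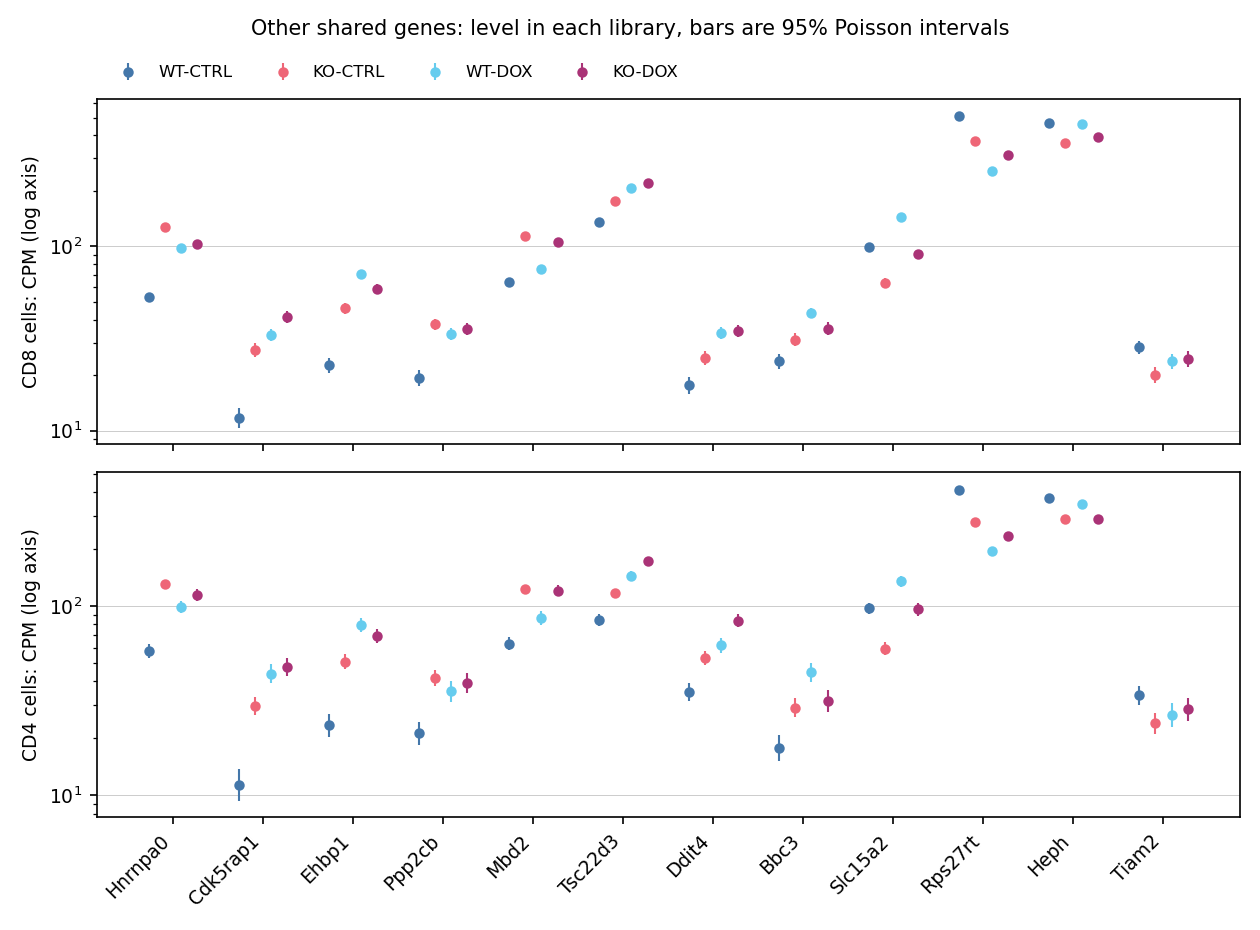
Level in CPM (log axis) of 12 shared genes outside the interferon lists in CD8 cells (top) and CD4 cells (bottom) of each library, with 95% Poisson intervals. WT-CTRL is the lowest library for the first 8 genes, Mbd2 is higher in both knockout libraries, and Slc15a2 is lower with the knockout label within each treatment, at 63.4 against 99.8 and 91.4 against 144 CPM in CD8 cells.

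Among the 12 shared lower genes, Slc15a2 (chr16:36750177-36784962, minus strand), a transporter that takes up dipeptides and tripeptides, was lower in both treatment pairs. In CD8 cells Slc15a2 was at 99.8 CPM in WT-CTRL, 63.4 in KO-CTRL, 144 in WT-DOX and 91.4 in KO-DOX. In CD4 cells Slc15a2 was at 97.5, 59.5, 135 and 96.3 CPM. The log2 fold was -0.65 in both pairs in CD8 cells, and -0.70 and -0.48 in CD4 cells, and KO-CTRL was past the fold below each other library in both lineages, as 0.0407% of measured genes were. Slc15a2 was 1 of 4 shared lower genes with the same call in the doxorubicin pair in both lineages, against 0.345% of measured genes called lower there in both, and the other 3 were predicted or uncharacterised transcripts. Rps27rt, a retrotransposed copy of a ribosomal protein gene that can share reads with its parent, was at 510 CPM in WT-CTRL, 374 in KO-CTRL, 258 in WT-DOX and 311 in KO-DOX in CD8 cells. Rps27rt and Amd1 were the only measured genes past the fold higher in WT-CTRL than in each other library in both lineages (0.0271% of 7372). This condition and the one met by Slc15a2 include the fold between KO-CTRL and WT-CTRL that the shared class requires. Heph, a ferroxidase, was at 469 and 366 CPM in CD8 cells and 374 and 288 in CD4 cells of WT-CTRL and KO-CTRL. Tiam2 (log2 folds -0.47 and -0.47) and Kalrn (-0.34 and -0.36), both guanine nucleotide exchange factors, Amd1 (-0.34 and -0.37), an enzyme of polyamine synthesis, and Snx9 (-0.33 and -0.48), a sorting nexin, were the other named genes lower in both CD8 and CD4 cells.

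Cd74, the invariant chain of class II molecules, was also called lower in both lineages, at 116 and 85.2 CPM in CD8 cells and 132 and 91.8 in CD4 cells. Its UMIs were concentrated, since 10 cells held 65.1% of the 2416 Cd74 UMIs in CD8 cells of WT-CTRL and 1 cell held 680. H2-Aa and H2-Eb1, which encode class II chains and were measured in CD8 cells alone, were at 25.6 and 9.91 CPM and at 20.4 and 8.77, with 96.1% and 96.7% of the WT-CTRL UMIs in 10 cells. The summed level of the 15 B cell markers, which include these genes, was 335 CPM in CD8 cells of WT-CTRL and 260 in KO-CTRL, and 361 and 303 in CD4 cells. Cd79a is at 0 by the gate, and the part of other cells in this difference was not tested. All these values went the other way in the doxorubicin pair. Without the deep barcodes, above the 98th percentile of UMIs, the CD8 log2 fold was 0.59 for Cd74, 1.81 for H2-Aa and 1.92 for H2-Eb1.

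Of the cell division lists, 1 gene of the G2 and M phase (Birc5) and 2 of the S phase (Rrm2 and Clspn) were among the 47 shared higher genes. On the G2 and M phase list 13 of 30 measured genes were higher in CD8 cells and 6 of 34 in CD4 cells, 0 were lower, and the medians were 0.29 and 0.21. On the S phase list 6 of 27 and 6 of 30 were higher and 0 lower, with medians of 0.24 and 0.17. Rrm2, a subunit of ribonucleotide reductase, was at 45.8 and 63.4 CPM in CD8 cells and 67.1 and 96.9 in CD4 cells. Hist1h1d, a linker histone made in S phase, was at 29.5 and 42.4 CPM in CD8 cells and 55.4 and 89.0 in CD4 cells. Hist2h2ac (log2 folds 0.45 and 0.49) and Birc5 (0.42 and 0.33), the cell division protein survivin, were shared too, and histone genes of a family can share reads. A UMI of Mki67, a protein of dividing cells, was found in 2.93% (2.47 to 3.43) of CD8 cells in WT-CTRL and 2.76% (2.31 to 3.26) in KO-CTRL, and in 5.20% (4.31 to 6.22) and 6.17% (5.25 to 7.19) of CD4 cells. The intervals of the 2 libraries overlapped in each lineage. In the doxorubicin pair 22 of 25 measured G2 and M phase genes were higher in CD8 and 26 of 35 in CD4 cells. The medians there were 0.70 and 0.58. On the S phase list 20 of 26 and 1 of 30 were higher in that pair, with medians of 0.50 and 0.03. The CD8 values of the untreated pair depended on deep barcodes. Without barcodes above the 98th percentile of UMIs, the median of the G2 and M phase list was -0.32 in CD8 and 0.82 in CD4 cells. The CD8 folds of Rrm2, Hist1h1d and Birc5 were then -0.30, -0.13 and -0.29.

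**Figure D5:**
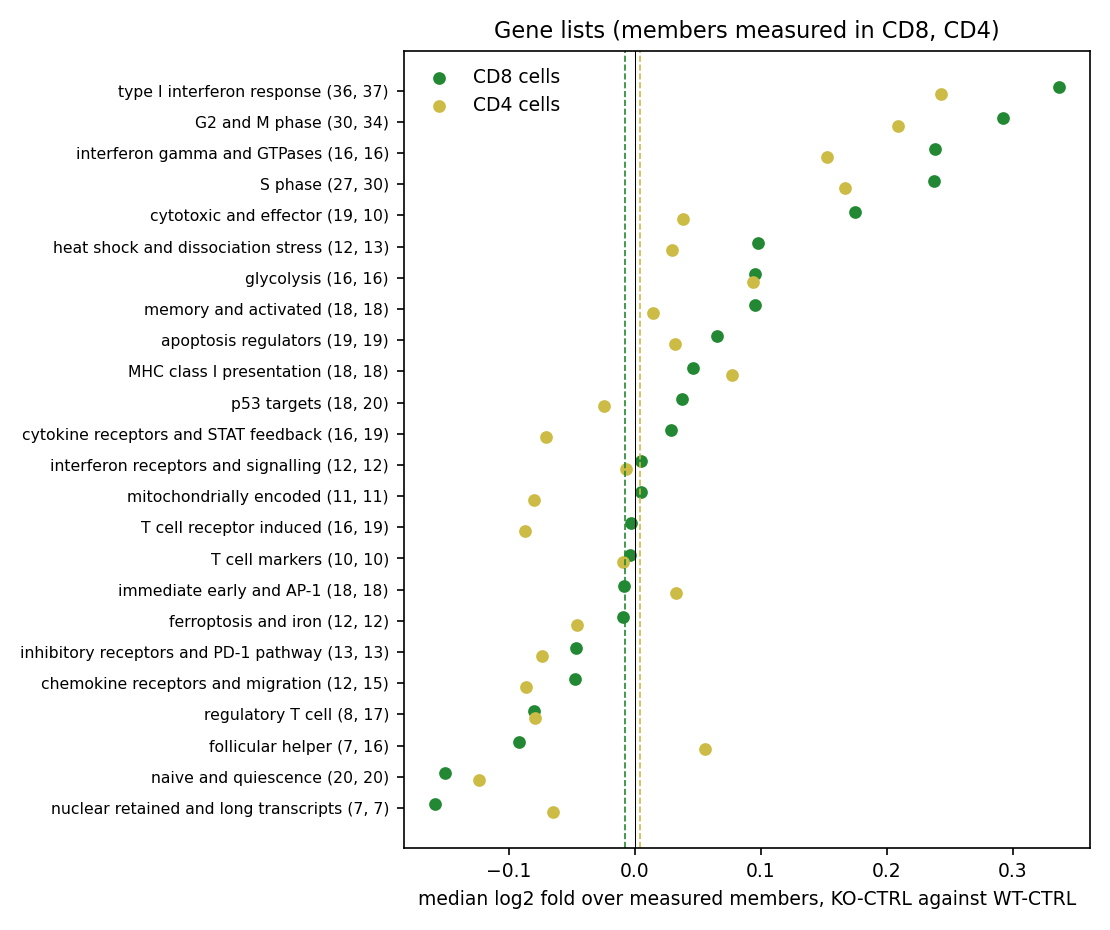
Median log2 fold of KO-CTRL over WT-CTRL for each gene list with at least 5 measured members, in CD8 and CD4 cells; the numbers of measured members follow the list's name, and dashed lines mark the median of all measured genes. The type I interferon list is farthest to the right in both lineages, at 0.34 and 0.24, and the naive and quiescence list lies to the left, at -0.15 and -0.12.

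Opposite calls in the lineages were found for 3 genes, of which 1 was a receptor segment. The largest difference was in Gzmb (chr14:56258838-56262260, minus strand), which encodes granzyme B, the protease of cytotoxic granules. In CD8 cells Gzmb was at 21.6 CPM in WT-CTRL, 38.2 in KO-CTRL, 20.2 in WT-DOX and 34.5 in KO-DOX. In CD4 cells Gzmb was at 53.8, 22.2, 40.6 and 27.1 CPM. With the knockout label it was thus higher in CD8 cells and lower in CD4 cells, within each treatment. The log2 folds of 0.79 (0.65 to 0.99) and -1.24 (-1.51 to -1.05) differed by 2.03 (1.75 to 2.31). The UMIs came from 65 and 74 CD8 cells and from 47 and 32 CD4 cells of WT-CTRL and KO-CTRL, with up to 87 in 1 cell, so few cells carried the levels, and without barcodes above the 98th percentile of UMIs the CD4 fold was -0.45. Havcr2, which encodes the inhibitory receptor TIM-3, went the same ways by less, at 9.47 and 12.8 CPM in CD8 cells and 19.6 and 14.2 in CD4 cells, but turned with each cell at the same weight.

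Fewer effector genes could be measured in CD4 than in CD8 cells, and 9 were measured in both, of which Ccl5 was shared, Ifng CD8-only, Nkg7 CD4-only and Gzmb opposite. Of 19 measured genes on the cytotoxic list 9 were higher in CD8 cells and 0 lower, with a median of 0.18. In CD4 cells 2 of 10 were higher (Nkg7 and Ccl5), Gzmb was lower, and the median was 0.04. Gzmk, granzyme K, was at 8.23 CPM in WT-CTRL, 20.4 in KO-CTRL, 9.06 in WT-DOX and 21.1 in KO-DOX in CD8 cells. The share of CD8 cells with a UMI of Gzmk was 0.873% in WT-CTRL and 1.73% in KO-CTRL. Ccl4, a chemokine, was at 15.7 and 29.4 CPM and Xcl1, a chemokine that attracts cross-presenting dendritic cells, at 23.7 and 35.4 in CD8 cells, with up to 119 Xcl1 UMIs in 1 cell and a log2 fold of -0.069 without deep barcodes. The 3 genes Gzmk, Ccl4 and Xcl1 had a mean below 10 CPM in CD4 cells, so nothing is said of that lineage. Ifng, interferon gamma itself, was at 16.1 and 22.4 CPM in CD8 cells and 27.3 and 26.1 in CD4 cells, and the folds differed by 0.52 (0.19 to 0.84). In the doxorubicin pair Ifng was called higher in both lineages, with log2 folds of 0.41 in CD8 and 0.90 in CD4 cells. The transcription factor Eomes was at 27.3 and 36.6 CPM and the receptor Cd160 at 27.1 and 36.2 in CD8 cells. Nkg7, a granule protein, was at 35.9 and 54.4 CPM in CD4 cells and 578 and 652 in CD8 cells. The naive and quiescence list had 0 of 20 members higher and 1 lower in each lineage, Sox4 in CD8 and Dapl1 in CD4 cells, and medians of -0.15 and -0.12.

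In CD8 cells only, 5 interferon-induced genes were higher, and for most of them this class depended on the CD4 gate and on other processing choices. Ly6a, Ifih1, Isg20 and Socs1 lost it with the wide CD4 gate, with each cell at the same weight, without deep barcodes and in resting cells. Gbp7 lost it at 1.5-fold only. With the wide CD4 gate 21 type I interferon genes were higher in CD4 cells. Ly6a, the surface protein Sca-1, was at 73.0 CPM in WT-CTRL, 113 in KO-CTRL, 63.9 in WT-DOX and 127 in KO-DOX in CD8 cells. In CD4 cells Ly6a was at 252, 298, 215 and 363 CPM, and there the untreated pair stayed below the fold. Ifih1, the RNA sensor MDA5, was at 18.8 and 29.1 CPM in CD8 cells and 38.3 and 44.2 in CD4 cells, while in the doxorubicin pair it was called in CD4 cells (0.44) and not in CD8 cells (0.12). Isg20, an RNA exonuclease, was at 19.7 and 28.9 CPM in CD8 cells and 36.0 and 41.0 in CD4 cells. For these 3 genes WT-CTRL had a higher level in CD4 than in CD8 cells. Gbp7, with log2 folds of 0.34 and -0.08, and Socs1, a feedback inhibitor of cytokine signalling, with 0.33 and 0.14, were the others. In CD4 cells only, Tgtp2, a GTPase with a near-identical copy, was at 53.8 and 71.8 CPM, against 122 and 116 in CD8 cells. Tgtp2 lost this class with the strict and with the wide gate. Oas1a, measured in CD4 cells alone, was at 10.3 and 14.9 CPM.

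The other CD8-only genes that differed most from the CD4 cells were mixed in function. Higher in KO-CTRL were Hist1h2bn (log2 folds 0.79 in CD8 and -0.28 in CD4 cells), Hist1h3e (0.91 and 0.21) and Ccnb1 (0.49 and -0.41), which encodes cyclin B1. Up to 114 Hist1h3e UMIs came from 1 cell of KO-CTRL, and without deep barcodes the CD8 log2 folds were -0.44 for Hist1h2bn, -0.17 for Hist1h3e and -0.67 for Ccnb1. Txnl4a (0.46 and -0.19), a spliceosome protein, Cybc1 (0.37 and -0.17), a chaperone of the phagocyte oxidase, and Ciapin1 (0.36 and -0.17), of iron-sulphur cluster assembly, were the rest of the 6. Lower were Tbc1d4 (-0.39 and 0.20), which regulates glucose transporter traffic, Sox4 (-0.50 and 0.01), a transcription factor of immature lymphocytes, Xdh (-0.43 and 0.02), xanthine dehydrogenase, Klhdc10 (-0.40 and 0.17), Slc16a6 (-0.43 and 0.00080) and Tex14 (-0.45 and -0.09). Sox4 alone of these 6 had the same call in CD8 cells of the doxorubicin pair, at 15.4 CPM in WT-DOX and 9.98 in KO-DOX. Basp1 (-0.52) and Gria3 (-0.46), a glutamate receptor subunit, were lower and measured in CD8 cells alone, and Mt1, a metallothionein, was higher, at 17.6 and 31.8 CPM, with up to 130 UMIs in 1 cell and a log2 fold of -0.020 without deep barcodes.

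In CD4 cells only, the largest difference from CD8 cells was in the histone gene Hist1h2ak, at 16.6 CPM in WT-CTRL and 46.3 in KO-CTRL against 20.7 and 20.6 in CD8 cells. Hist1h2ai (log2 folds 0.71 in CD4 and -0.05 in CD8 cells) stood beside it, and Hist1h3i, measured in CD4 cells alone, had 0.99. Ifitm2 (0.63 and -0.16), a membrane protein that blocks virus entry, Lmo4 (0.50 and -0.18), a LIM-domain transcription regulator, Serpini1 (0.52 and -0.10), a serine protease inhibitor, and Dexi (0.51 and -0.04) followed. Up to 45 Ifitm2 UMIs came from 1 CD4 cell of KO-CTRL. Lower were S100a4 (-0.54 and 0.07), a calcium-binding protein of memory and motile cells, Jaml (-0.54 and 0.10), an adhesion molecule, Csgalnact2 (-0.56 and 0.07), an enzyme of chondroitin sulphate synthesis, and Pip4k2b (-0.39 and 0.31), a lipid kinase. Dus4l (-0.54 and 0.07) and Pus7l (-0.51 and 0.08) belong to families that modify transfer RNA and other RNAs. Itgae, the integrin CD103, was at 32.8 and 23.1 CPM in CD4 cells and Dapl1 at 118 and 81.0. Without deep barcodes the CD4 log2 fold was 0.16 for S100a4 and 0.016 for Itgae. Dapl1 was also lower in CD4 cells of KO-DOX, at 81.2 CPM against 120 in WT-DOX.

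The genes of helper and regulatory subsets are described in CD4 cells. Sostdc1, a secreted protein of follicular helper cells, was at 52.0 CPM in WT-CTRL, 86.7 in KO-CTRL, 52.2 in WT-DOX and 149 in KO-DOX. It was the 1 called gene of 16 measured on the follicular helper list, whose median was 0.06, and Il21 (35.6 and 38.6 CPM), Tox2 (53.6 and 60.7) and Pdcd1 (39.9 and 44.2) stayed below the rule. On the regulatory T cell list 2 of 17 measured genes were higher (Nrp1 and Penk) and 3 lower (Itgae, Il10 and Gzmb). Penk, which encodes proenkephalin, was at 29.5 and 49.3 CPM, with up to 122 UMIs in 1 cell. Il10, an anti-inflammatory cytokine, was at 18 CPM in WT-CTRL, 6.21 in KO-CTRL, 19.5 in WT-DOX and 21.3 in KO-DOX. Cells with a UMI of Il10 were 1.37% in WT-CTRL and 1.59% in KO-CTRL, and the most UMIs in 1 cell were 32 and 5. Foxp3, the factor of regulatory T cells, was at 22.4 and 20.4 CPM and was found in 5.02% of CD4 cells in both libraries. The genes that follow are on neither list and were measured in CD4 cells alone. Cybb, the catalytic subunit of the phagocyte oxidase, was at 7.65 and 13.8 CPM, Pdzk1ip1 at 5.99 and 14.2 and Nrgn at 7.32 and 14.1. In the doxorubicin pair Cybb was called higher (0.90), while Pdzk1ip1 (-0.69) and Nrgn (-0.46) were negative and not called. The chemokine receptor Ccr2 was at 24.9 and 16.0 CPM, Lmna, which encodes lamin A, at 14.1 and 7.95, and the histone gene Hist1h2bg at 15.9 and 10.4, with a log2 fold of 0.53 without deep barcodes.

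For the PD-1 pathway itself no call was made on either ligand or on Pdcd1 in the untreated pair. Pdcd1lg2, the other ligand of PD-1, was at 5.45 and 5.99 CPM in CD8 cells and 23.7 and 22.5 in CD4 cells. Pdcd1 was at 4.97 CPM (4.06 to 6.03) and 7.63 CPM (6.47 to 8.93) in CD8 cells, a log2 fold of 0.53 past the fold with intervals apart, but its mean was below the level required for a call. Tcf7, the factor of naive and memory T cells, was at 584 and 555 CPM in CD8 cells and 715 and 723 in CD4 cells. On the list of inhibitory receptors and the PD-1 pathway 2 of 13 measured genes were higher in CD8 cells (Havcr2 and Cd160) and 1 of 13 was lower in CD4 cells, with medians of -0.05 and -0.07. In the doxorubicin pair 3 of 12 of this list were higher in CD8 and 7 of 13 in CD4 cells, with medians of 0.20 and 0.34, and Cd274 and Pdcd1 were called higher in CD4 cells there. The 18 measured immediate early genes, which respond to receptor stimulation and to cell handling, had 0 calls in both lineages, with medians of -0.0090 and 0.03.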

How the data were processed

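The deposited files hold counts: per the labels, libraries were made with the SeekOne DD 5' kit, and the values are whole UMI counts for each gene and barcode. The submitters' processing notes name mm10 as the build. Aligner and cell calling remain unstated in the sources used here. All deposited barcodes had at least 500 UMIs. The filter of 300 genes and 10% mitochondrial UMIs removed 9 of 12828 barcodes in WT-CTRL and 6 of 12959 in KO-CTRL. No doublet caller was run, and the gate removed barcodes with UMIs of both lineages (351 and 363) or of Cd79a (81 and 86), so doublets within a lineage remain. UMIs were summed for each library and lineage and divided by the total to give CPM, so 3 counts, the limit that a count of 0 allows, correspond to 0.143 and 0.149 CPM in CD8 cells and 0.333 and 0.291 CPM in CD4 cells of WT-CTRL and KO-CTRL. Intervals of levels are exact Poisson, of shares exact Clopper-Pearson, and of ratios from the conditional binomial, all at 95%. Positions come from GENCODE M21 for GRCm38, which holds 32235 of the 32285 gene identifiers. Promoters come from RefSeq GRCm38.p6.

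The members, the 29 gene lists and the rules were chosen with earlier results of these data known. Genes named are the 8 largest shared in each direction by the smaller fold, the 6 largest CD8-only and CD4-only by the difference of folds, the 4 largest measured in 1 lineage alone, up to 2 of each list for each direction and lineage, and a fixed set of immune genes. Of 101 genes picked, 84 are described, and other genes named were chosen after their values were seen. Receptor segments were treated as a group, and predicted genes were counted only. On simulated counts for KO-CTRL against WT-CTRL over 7335 genes, 32 of 34 shared genes altered 1.5-fold were recovered, and of 7135 unaltered genes 0 were placed as shared, 2 as CD8-only and 14 as CD4-only. The simulation has no variation between cells or mice. Its altered genes lay above the level floor and were changed 1.5-fold or 2-fold. Recovery closer to the floor or to the fold rule was therefore not simulated. The alternatives concerned the cell filter, the gates, scaling, the weight of cells, deep barcodes, resting cells, lineage size, pseudocount, level floor and fold. Python 3.11.15, numpy 2.4.6, scipy 1.17.1, pandas 2.3.3 and matplotlib 3.10.9 were used. Some items are not reported here.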

Additional observations from a re-analysis of the deposited data

Results flagged for a closer look

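In the untreated pair, 3 genes were called in opposite directions in CD8 and CD4 cells. The log2 fold of KO-CTRL over WT-CTRL in CD8 minus that in CD4 cells was 2.03 for Gzmb, 0.85 for Havcr2 and -0.76 for the receptor segment Trbv26. Other genes were called in opposite directions in the untreated and the doxorubicin pair of 1 lineage. The log2 fold of KO over WT in the untreated pair minus that in the doxorubicin pair was -2.87 for H2-Aa, -2.18 for H2-Eb1 and -1.28 for Cd74 in CD8 cells. In CD4 cells it was -1.28 for Cd74, -1.46 for S100a4, -1.22 for Havcr2, -0.87 for Irgm2 and 1.16 for Bbc3. With 1 library in a group none of these differences was tested.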

How the results depend on the processing

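The type I interferon medians stayed at 0.29 to 0.36 in CD8 and 0.21 to 0.35 in CD4 cells over the 13 alternatives. Kept as shared under all 13 were Ehbp1, Hnrnpa0, Ifit1, Iigp1, Mbd2, Ppp2cb, Slc15a2 and 1 predicted transcript, and 0 of the CD8-only or CD4-only genes were. Gzmb kept its signs wherever its cells were not excluded, at 0.54 to 0.96 in CD8 and -1.61 to -0.45 in CD4 cells. Without deep barcodes shared higher genes were 30, CD8-only higher 11 and CD4-only lower 15, and in resting cells 30, 11 and 13. With a floor of 25 CPM there were 29 shared higher, 18 CD8-only higher, 6 CD8-only lower, 17 CD4-only higher, 18 CD4-only lower and 7 type I interferon genes higher in CD4 cells. With no floor there were 20 shared lower, 51 CD8-only higher, 26 CD8-only lower and 55 CD4-only higher. At 1.5-fold 9 shared were higher and 2 lower, 7 and 3 CD8-only, 5 and 1 CD4-only, and 7 and 3 type I interferon genes were higher in CD8 and CD4 cells. A pseudocount of 5 CPM gave 7 shared lower, 21 CD8-only higher and 7 lower. CD4-only lower genes were 53 with the strict and 20 with the wide gate, where 21 type I interferon genes were higher in CD4 cells. CD8-only lower genes were 7 with median-of-ratios scaling and 32 with fewer CD8 cells, and CD8-only higher genes 7 with each cell at the same weight.

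Some log2 folds changed sign. With the wide CD4 gate Ccl5 was at -0.21 and Cd74 at 0.0014 in CD4 cells. With each cell at the same weight Havcr2 was at -0.035 in CD8 and 0.043 in CD4 cells, and in CD8 cells Rrm2 was at -0.032, Hist1h2bn -0.079, Hist1h1d -0.046 and Ccnb1 -0.034. Hist1h2bg in CD4 cells was at 0.30 without its top barcodes. Without deep barcodes CD8 values were -0.069 for Xcl1, -0.020 for Mt1, -0.22 for Havcr2, -0.29 for Birc5, -0.30 for Rrm2, -0.44 for Hist1h2bn, -0.13 for Hist1h1d, -0.17 for Hist1h3e, -0.67 for Ccnb1, 1.81 for H2-Aa, 1.92 for H2-Eb1 and 0.59 for Cd74. The CD4 values there were 0.16 for S100a4, 0.39 for Havcr2, 0.016 for Itgae and 0.53 for Hist1h2bg. In resting cells CD8 values were -0.91 for Xcl1, -0.026 for Cd160, -1.06 for Mt1, -0.19 for Ifng, -1.16 for Havcr2, -0.015 for Rrm2, -0.10 for Hist1h2bn, -0.080 for Hist1h1d, -0.17 for Hist1h3e, -0.068 for Ccnb1 and -0.062 for Gzmk. The CD4 values there were 0.54 for Il10, -0.32 for Nkg7, -1.30 for Ifitm2, 0.023 for Jaml, 0.30 for Havcr2, 0.061 for Itgae, -0.30 for Birc5, -0.25 for Rrm2, -0.26 for Hist1h2ai, -0.51 for Hist1h2ak, -0.057 for Hist1h1d, 0.034 for Hist1h2bg and 0.44 for Cd74. The resting gate itself leaves out dividing and effector cells, and for the other changes the cause was not tested. No paired analysis was possible because each group has 1 library. Counting error is smaller in CD8 cells, which are more numerous, so differences in CD4 cells had to be larger to be called.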

Other observations

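Some variable segments of the T cell receptor were called as different in level between the libraries. Over all measured genes 3.01% were called in CD8 and 2.68% in CD4 cells. Of 15 measured alpha segments 1 was higher in CD8 cells, and of 23 in CD4 cells 2 were higher and 4 lower, with CD4 log2 folds from -0.56 to 0.67. Of 17 measured beta segments 2 were lower in CD8 cells, and of 18 in CD4 cells 1 was higher and 4 lower, with CD4 log2 folds from -0.79 to 0.36. Heat shock and dissociation stress genes, 12 measured in CD8 and 13 in CD4 cells, and glycolysis genes, 16 in each lineage, had 0 calls, with medians of 0.10 and 0.03 and of 0.10 and 0.09 in CD8 and CD4 cells.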
